A study of Solanum pimpinellifolium with 6 samples.

Results

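Small RNAs (sRNAs) were compared between leaves of the wild tomato LA2093 (Solanum pimpinellifolium, a heat-tolerant accession) held at a normal temperature of 26/18 °C day/night (NT) and leaves held for 8 h at an acutely elevated temperature of 40/40 °C (AET). These are 2 of the 6 libraries of the series, chosen by their labels. Both came from the same untransformed accession and from leaves pooled over several seedlings, but the heated seedlings were also given an extra irrigation with water each day. There is 1 sRNA library per temperature, so no value has a replicate and the tests compare the 2 libraries, not the temperatures. The deposited list held 759 entries, which came to 629 distinct sequences of 19 to 24 nt, 539 of them conserved (matching a plant miRNA in miRBase) and 90 predicted (names starting with PC, from hairpins predicted in the tomato genome). Reads were found for 597 of the 629 in at least 1 of the 2 libraries, in both for 462, in NT alone for 82 and in AET alone for 53. Of the 597, 6 held only fractions of a read that round to 0, and the other 591 were tested. Names end in a tag such as _stu or _nta where the nearest miRBase entry is from another species.

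A plant miRNA is cut from a folded precursor, the hairpin, whose 2 arms yield a duplex, and one strand of it guides an ARGONAUTE protein to a transcript with a nearly complementary site, which is then cleaved. Many conserved families act on transcription factors of leaf development, others on copper proteins, on the sRNA machinery itself or on disease-resistance transcripts. Small RNAs of 24 nt are, in plants, mostly siRNAs that direct DNA methylation to repeats, and sequences of 22 nt can start secondary siRNA production.

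The sequences on which the comparison turns are shown in DNA letters as deposited, with bases 2 to 8 (the seed) in capitals and sequences of one seed kept together. First stand the miR319 sequences and, for contrast, the miR159 guide, whose seed differs, with both other strands of a miR159 hairpin.
spi-miR319a, hairpin on chromosome 6: tTGGACTGaagggagctccct
spi-miR319a, hairpin on chromosome 3: tTGGACTGaagggagctcctt
spi-miR319-3p_stu: tTGGACTGaagggtttccttc
spi-miR159_csi: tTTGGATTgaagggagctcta
spi-miR159-p5: aGCTGCTGacctatggattcc
spi-miR159-p3: gTTTGCATatgtcaggagcttt
The next lines show sets in which sequences with the same seed, or nearly the same sequence, had unlike ratios.
spi-miR166a, most abundant: tCGGACCAggcttcattcccc
spi-miR166a, second form: gCGGACCAggcttcattcccc
spi-miR166m_gma: gCTGACCAggcttcattcccc
spi-miR172a: aGAATCTTgatgatgctgcat
spi-miR172d-3p_stu: gGAATCTTgatgatgctgcag
spi-miR171e: tTGAGCCGcgtcaatatctct
spi-miR171d, first form: tTGAGCCGcgccaatatcact
spi-miR393-5p_stu: tCCAAAGGgatcgcattgatc
spi-miR393a_bdi: tCCAAAGGgatcgcattgattt
The last set holds abundant called sequences, those of the tobacco-annotated group, the conserved sequence with the largest ratio, and spi-miR482e-3p, which was abundant but not called.
spi-miR408b-3p_stu: tGCACTGCctcttccctggct
spi-miR408-3p_mtr: tGCACTGCctcttccctggctttt
spi-miR167a: tGAAGCTGccagcatgatcta
spi-miR482e-3p: tCTTTCCTactcctcccatacc
spi-miR6023: tTCCATGAaagagtttttggat
spi-miR6023-p3: tTACTACGgtcaggaatcttat
spi-miR6149a_nta: tTGATACGcacctgaatcggc
spi-miR6146b_nta: tTTGTCCAatgaaatacttatc
spi-miR6145e_nta: aTTGTTACatgtagcactggct
spi-miR7972_rgl: tTGTCAGGcttgtgattctcc

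A sequence was called higher or lower in AET by the rule the study used, which asks for a log2 ratio of normalized reads (AET over NT) of 1 or more in size and for 0.05 or less as the p of Fisher's exact test and of the chi-square test alike. By this rule 66 of the 591 sequences were higher in AET (11.2%) and 52 were lower (8.8%). The higher calls were 38 conserved and 28 predicted sequences, and the lower calls were 45 conserved and 7 predicted ones. The median higher call had 2.75 raw reads in NT and 17 in AET, and the exact 95% interval of the ratio (counting error only) included 0 for 16 of the 66. The lower calls had a median of 23.5 raw reads in NT and 5 in AET, and no interval of the 52 included 0. Of the 297 tested sequences with fewer than 10 normalized reads in both libraries, 18 were called. Groups are described below over the 294 sequences with at least 10 normalized reads in NT or AET, of which 18.7% were higher and 15.3% were lower, with a median log2 ratio of 0.15. A sequence could pass this minimum through the library in which it was high: 191 passed in both libraries, 44 in NT only and 59 in AET only, so counts among those that passed are a description.

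**Figure D1:**
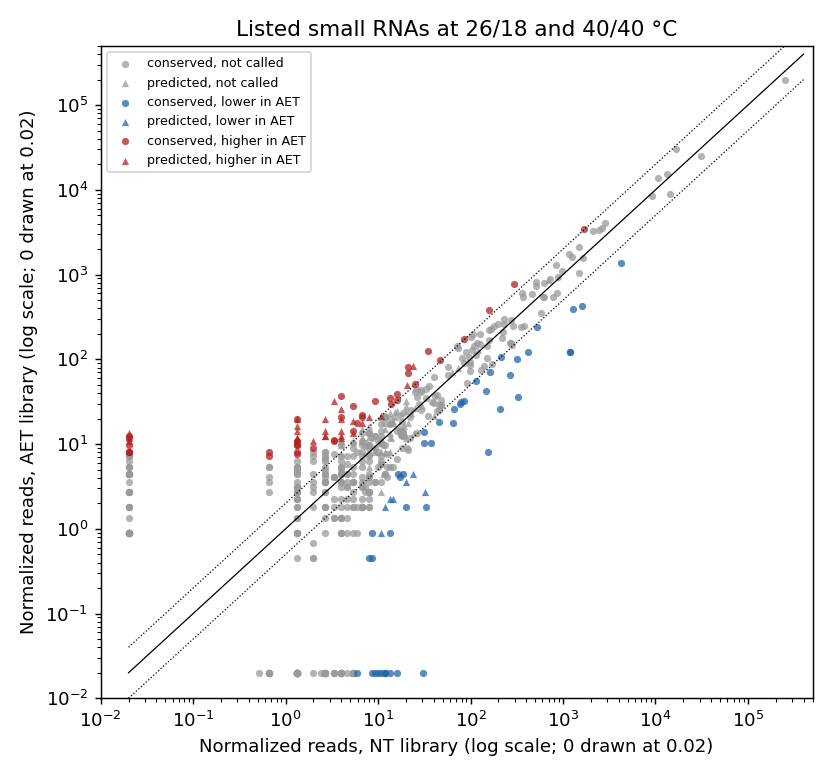
Normalized reads of each listed sequence in the NT library (x axis) and the AET library (y axis), both on log scales with 0 drawn at 0.02; circles are conserved and triangles predicted sequences, coloured by call, and the dotted lines mark a log2 ratio of 1 in size. The 66 higher calls lie mostly at few reads. Among sequences with 1000 or more normalized reads in their richer library, 1 was higher and 5 were lower.

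The calls were spread unevenly over read depth. Summed over distinct sequences, the listed reads were 301702 in NT and 394910 in AET, and the factors that turn raw into normalized reads were 1.33 and 0.898. Among the 206 sequences with 10 to 100 normalized reads in their richer library, 50 were higher and 29 lower. Among the 64 with 100 to 1000 normalized reads, 4 were higher and 11 lower, and among the 24 with 1000 or more, 1 was higher and 5 were lower. The medians of these 3 classes were 0.18, 0.08 and 0.19, so the well-read sequences did not sit lower as a class. The most abundant sequence, spi-miR166a, took 62.9% of the listed reads in NT and 56.2% in AET.

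The miR319 family, which directs cleavage of TCP transcription factors that restrain cell division at the leaf margin, has 11 listed sequences, of which 7 were lower in AET, 0 were higher and 4 with 6 or fewer raw reads were not called. Of the 6 that passed the minimum (median log2 ratio −3.28), both spi-miR319a sequences passed in both libraries and the other 4 in NT only. The dominant spi-miR319a had 896 raw reads in NT and 136.7 in AET, which is 1191 and 122.7 normalized reads (log2 ratio −3.28, 95% interval −3.55 to −3.01, given in this order in parentheses from here on). Both spi-miR319a sequences, which differ at the 3′ end, carry the same read values in the list, so they may be a single measurement entered for 2 hairpins. With those counted as 1, the summed reads of the sequences that passed had a log2 ratio of −3.42 (95% interval −3.67 to −3.16). spi-miR319-3p_stu went from 116 to 9 raw reads (−4.25, −5.42 to −3.28). The opposite strand of the chromosome 6 hairpin, spi-miR319b-p5, had 23 raw reads in NT and none in AET, at least 11.4-fold lower against a floor of 3 reads. For spi-miR319a, quantitative PCR (qRT-PCR) on replicate samples in the paper went in the opposite direction. There spi-miR319a was reported as significantly higher than its control under AET, at 8 h among other times. The paper's figure labels that control 0 h, whereas the NT library is of leaves taken at 8 h, so the references are unlike. The reason for the opposite directions was not tested.

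The related miR159 guide, which acts on GAMYB-type transcription factors, had a ratio above 0. spi-miR159_csi had 7978 raw reads in NT and 15370 in AET, a log2 ratio of 0.38 (0.34 to 0.42) below the threshold of the rule. In contrast, both strands of the miR159 hairpin on chromosome 3 (plus strand, 61786065 to 61786218) that are named for an arm were lower. spi-miR159-p5 had 1217 and 480 raw reads (−1.91, −2.06 to −1.75), and spi-miR159-p3 had 317 and 137 (−1.78, −2.08 to −1.48). Over the 8 MYB-targeting sequences (miR159, miR828 and miR858), 2 were lower and 0 were higher, with a median of −0.83 but a summed ratio of 0.18 set by the abundant guide.

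Of 19 tested sequences of the miR166 family, which acts on HD-ZIP III transcription factors that set the upper side of the leaf, 5 were lower and 2 higher. The 2 higher ones had 9 or fewer raw reads in each library. Among the 11 sequences that passed the minimum, 4 were lower and 0 higher. The most abundant one had 189767 raw reads in NT and 222136.5 in AET, that is 252273 and 199458 normalized reads (−0.34, −0.35 to −0.33), and was not called. The second form of spi-miR166a went from 392 to 268 raw reads (−1.11, −1.34 to −0.89), a call that ended when the libraries were scaled to their valid reads (−0.98). spi-miR166m_gma, listed without a genome position, went from 245.5 to 39.8 (−3.19, −3.71 to −2.70). Without the most abundant sequence the log2 ratio of all listed normalized reads is 0.06, and with it −0.18.

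The other families that act on developmental transcription factors had few calls. The miR167 guide of auxin response factors was higher, with 1268 raw reads in NT and 3885 in AET for spi-miR167a (1.05, 0.96 to 1.14), and it was the best covered of all sequences called higher. The other 7 ARF-targeting sequences were not called, among them spi-miR160a with 82 and 160 raw reads (0.40, 0.01 to 0.80). Of 8 sequences of the miR171 family, whose guides act on GRAS factors, spi-miR171e was higher with 64 and 194 raw reads (1.03, 0.62 to 1.46). spi-miR171c-p5, from the arm opposite to spi-miR171d, was lower with 13 and 4.5, though not after Benjamini-Hochberg adjustment. Of the 5 miR396 sequences, named for growth-regulating factors, 1 was higher, spi-miR396-3p_stu, the strand opposite to the guide, with 26 and 138 raw reads (1.84, 1.23 to 2.51). The guide spi-miR396b itself had 1970 and 3948 raw reads (0.44, 0.36 to 0.52). None of 7 SPL-targeting miR156 and miR157 sequences and none of 3 NAC-targeting miR164 sequences was called, and spi-miR156a had 670 and 1049.5 raw reads (0.08, −0.06 to 0.22).

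Of 8 sequences of the miR169 family, whose guides act on NF-Y transcription factor subunits, 1 was higher and 2 were lower. Both lower ones are named for the 3p arm. spi-miR169e-5p, from the arm opposite to spi-miR169e-3p, had 30.3 and 34 raw reads (−0.40) and was not called. spi-miR169e-3p had 242 and 113 raw reads (−1.66, −2.0 to −1.34), and spi-miR169a_ptc had 3 and 23 (2.37, 0.65 to 4.75). Among the 2 miR172 sequences, which act on AP2-type factors of phase change and flowering, spi-miR172d-3p_stu was lower with 25 and 2 raw reads (−4.21, −7.33 to −2.21) and spi-miR172a had 30 and 68.5 (0.63). In the auxin receptor and trans-acting siRNA group (miR393 and miR390), 1 of 7 sequences was called, spi-miR393a_bdi, lower with 15 and 2 raw reads (−3.47, −6.64 to −1.37). spi-miR390a-5p had 150 and 292 raw reads (0.39, 0.11 to 0.69).

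**Figure D2:**
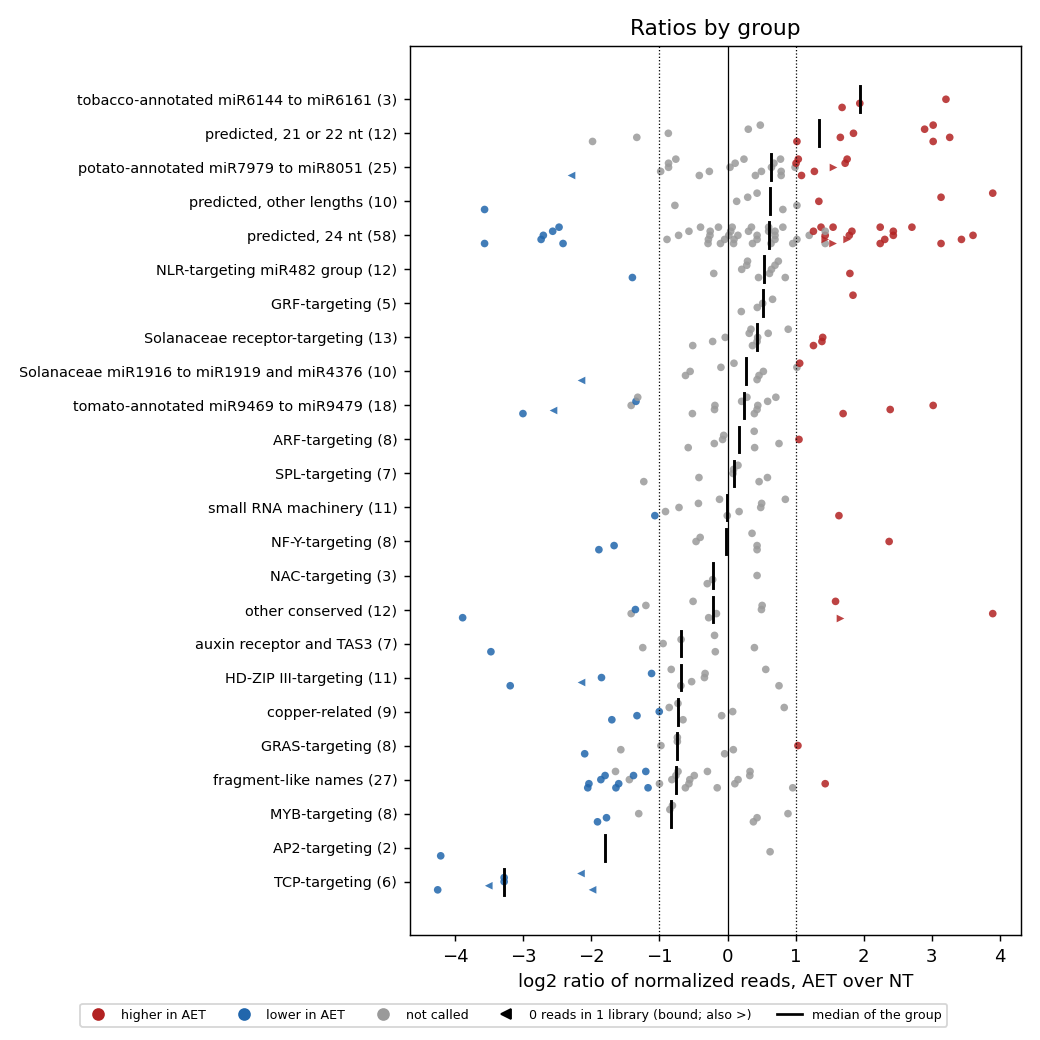
Log2 ratios of normalized reads (AET over NT, x axis) for the sequences with at least 10 normalized reads in either library, by group (groups of 2 or more) with the number of sequences in brackets; points are coloured by call, triangles are bounds where 1 library had 0 reads, and black bars are group medians. The 6 TCP-targeting points lie below −1, 4 of them of sequences that passed the minimum in NT only, and the 3 points of tobacco-annotated miR6144 to miR6161 lie above 1, 1 of them of a sequence that passed in AET only.

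The families whose guides act on the sRNA machinery (miR162 on DICER-LIKE1, miR168 on ARGONAUTE1, miR403 on ARGONAUTE2) had a median of 0.00 over 11 sequences. spi-miR168a-5p had 6886 and 9398 raw reads (−0.12, −0.16 to −0.07). spi-miR162 had 2167 and 4498 (0.49, 0.41 to 0.56). Of the 11, spi-miR403-3p_ath (5 and 23 raw reads, 1.64) was higher. The more abundant spi-miR403-3p, with the same seed, had 733 and 1221 raw reads (0.17, 0.04 to 0.30) and was not called. spi-miR168a-3p, from the arm opposite to spi-miR168a-5p, was lower (87 and 61.5 raw reads, −1.07, but −0.93 and not called when scaled to valid reads). The copper-related miRNAs (miR397 on laccases, miR398 on copper superoxide dismutases, miR408 on plantacyanin) had 3 of 9 sequences lower and 0 higher. spi-miR408b-3p_stu had 962 and 439 raw reads (−1.70, −1.86 to −1.53), and spi-miR408-3p_mtr with the same seed had 34.5 and 20.3 (−1.33, −2.24 to −0.54). For spi-miR408b-3p_stu too, the paper's qRT-PCR went in the opposite direction. It was reported there as significantly higher than its 0 h control at 8 h and later under AET. The reason for this was not tested. spi-miR398b-3p_stu was the lower call nearest the threshold, with 161 and 119 raw reads (−1.0), and was not called when scaled to valid reads (−0.86), whereas spi-miR398a-3p_stu, the most abundant of the group, had 1249 and 1742 (−0.09, −0.19 to 0.02).

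Guides of disease-resistance and receptor transcripts had ratios mostly above 0. In the miR482 group (miR482, miR5300 and miR2109, acting on NLR resistance transcripts), 1 of 12 sequences was higher and 1 lower, with a median of 0.54. spi-miR482e-3p had 12536 and 33400 raw reads (0.85, 0.82 to 0.88), short of the fold of the rule, and spi-miR482b had 9995 and 17098 (0.21, 0.17 to 0.24). Of 13 Solanaceae sequences of miR6019, miR6020 and miR6022 to miR6027, which act on receptor and resistance transcripts, 3 were higher and 0 lower. spi-miR6023-p3 had 221 and 855 raw reads (1.39, 1.17 to 1.61), and spi-miR6023 had 120 and 426 (1.26, 0.97 to 1.57). The most abundant of the group, spi-miR6024, had 1842 and 3706 (0.44, 0.36 to 0.52).

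Among the 214 conserved sequences that passed the minimum, 27 were higher. Of these 27, 10 were of the tobacco-annotated families miR6144 to miR6161 or the potato-annotated families miR7979 to miR8051. These families held 3 and 25 of the 214 sequences. The tobacco-annotated families had 12 sequences, of which 3 passed the minimum and were called higher, spi-miR6145e_nta in AET only, and the others had 8 or fewer raw reads in each library and were not called. spi-miR6149a_nta had 16 and 91 raw reads (1.94, 1.17 to 2.81), spi-miR6146b_nta had 16 and 76 (1.68, 0.89 to 2.56) and spi-miR6145e_nta had 3 and 41 (3.21, 1.56 to 5.54). None of the 3 has a genome position in the list. Other sequences with a tobacco tag were called higher (spi-miR6021_nta, 4.5 and 20 raw reads, 1.59) or not called (spi-miR156i-p3_nta, 120 and 245, 0.46). The potato-annotated families had 11 of 120 tested sequences higher and 1 lower, beside 11.2% higher over all 591 tested. The 25 that passed the minimum did so in both libraries (16), in NT only (4) or in AET only (5). Of these 25, 7 were higher and 1 lower (median 0.65). Among the higher ones was spi-miR8021-p5_stu with 12 and 43 raw reads (1.28, 0.33 to 2.33). The most abundant member of the potato-annotated families, spi-miR7983-p5_stu, had 95 and 220 raw reads (0.65) and was not called. The tomato-annotated miR9469 to miR9479 had 3 of 18 higher and 3 lower: spi-miR9478-p5 had 4 and 31 raw reads (2.39, 0.89 to 4.35), while spi-miR9474-p3 had 157 and 29 (−3.0, −3.63 to −2.42). The Solanaceae miR1916 to miR1919 and miR4376 had 1 of 10 sequences higher and 1 lower, and the sulfate and phosphate group (miR395, miR399, miR827 and miR2111) had 1 well-read sequence, which was not called. Of 12 well-read sequences of other conserved families, 3 were higher and 2 lower. The largest ratio of a conserved sequence with reads in both libraries was that of spi-miR7972_rgl, with 1 and 22 raw reads (3.89, 1.26 to 9.26), and the interval shows how loosely a single read fixes it.

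Sequences with reads in 1 library only were shallow. The best covered in AET alone were PC-48-3p with 15 raw reads, spi-miR1446_nta with 14, and spi-miR8031-p3_stu and PC-64-5p with 13 each, which are at least 3.38-, 3.15- and, for both of the last, 2.93-fold higher against a floor of 3 reads in NT. In NT alone, spi-miR9479-3p had 12 raw reads and spi-miR8007b-p3_stu had 10 after spi-miR319b-p5, at least 5.92- and 4.94-fold lower. The median over all such sequences was 1 raw read in NT alone and 3 in AET alone.

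The predicted sequences were listed by the study only where a library held at least 10 copies, so they had to be high in at least 1 of its 3 libraries. With that selection, 28 of the 80 predicted sequences with at least 10 normalized reads in NT or AET were higher and 7 were lower (median 0.62), against 27 and 38 of 214 conserved ones (median −0.05). Of the 80, 34 passed in both libraries, 12 in NT only and 34 in AET only, against 157, 32 and 25 of the conserved ones. Over all tested sequences, 28 of 90 predicted ones were higher and 7 lower, against 38 and 45 of 501 conserved ones. By length, 18 of 58 predicted sequences of 24 nt were higher and 6 lower, and 7 of 12 of 21 or 22 nt were higher and 0 lower. In AET only, 23 of these 58 and 6 of these 12 passed, so the counts are a description. PC-70-5p (21 nt, chromosome 5, minus strand, 26995317 to 26995574) had 2.5 and 35.5 raw reads (3.26, 1.36 to 5.36). PC-3-5p (24 nt, chromosome 2, plus strand, 34823474 to 34823610) had the most reads of the higher ones, 18 and 92 (1.79, 1.05 to 2.60). PC-27-5p, with 1 and 22 raw reads, had the largest ratio (3.89, 1.26 to 9.26), and PC-88-3p, with 24 and 3, the largest in the lower direction, where PC-72-5p with 8 and 1 had the same ratio (−3.57). Most of the predicted reads did not follow these calls: PC-49-3p, with 520 and 951 raw reads, had a ratio of 0.30 (0.15 to 0.46), and the summed log2 ratio of the class was 0.39 (0.29 to 0.48). Positions are those of the deposited list. The sources used here do not name its genome build, and overlap with annotated genes was not analysed here.

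The conserved sequences are also described by length, with no test. Of 109 conserved sequences of 21 nt, 9 were higher and 22 lower (median −0.19), and of 10 of 19 nt, 0 were higher and 4 lower (median −1.02). Of 37 of 22 nt, 7 were higher and 5 lower (median 0.39), and of 31 of 24 nt, 7 were higher and 5 lower (median 0.50). Family and length go together in this list, so their parts cannot be told apart. By first base, 9 of 19 predicted sequences that start with T were higher and 0 lower (median 1.20), 14 and 4 of 45 that start with A (median 0.43), 4 and 3 of 12 that start with G (median 0.39) and 1 and 0 of 4 that start with C (median 1.23). Among conserved sequences that start with T, 15 of 105 were higher and 14 lower (median 0.08).

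A set of names shared by sequences that resemble pieces of tRNA or rRNA (miR894, miR8175, miR5072, miR6478 and others) had 9 of 27 sequences lower and 1 higher (median −0.76). These sequences were kept although the study removed reads matching known tRNA and rRNA, and whether they are miRNAs was not tested. Within this set the lower calls were nearly all among those ending in CCA, the letters that cells add to the 3′ end of tRNAs: 8 of 12 ending in CCA were lower and 0 higher (median −1.52), against 1 lower and 1 higher of 15 with another end (median −0.29). Of the 12, 4 that were lower are shown with the CCA in capitals.
spi-miR894_ppt: cgtttcacgtcgggttcaCCA
spi-miR8175_ath, 23 nt: ttcgttccccggcaacggcgCCA
spi-miR8175_ath, 21 nt, most-read form: cgatccccggcaacggcgCCA
spi-miR5072_osa: atccccagcggagtcgCCA
spi-miR894_ppt, one of the most abundant entries of the list, had 3190 raw reads in NT and 1517.5 in AET (−1.64, −1.73 to −1.55). The 23 nt spi-miR8175_ath had 202 and 73 (−2.03, −2.44 to −1.64), the most-read of its 3 forms of 21 nt had 111.5 and 47.5 (−1.80, −2.31 to −1.29, beside −1.38 and −1.17 for the others) and spi-miR5072_osa had 49 and 20 (−1.86, −2.69 to −1.08). Without spi-miR894_ppt, the summed reads of the other 11 had a ratio of −1.33 (−1.50 to −1.16), with 7 of them lower. The 2 sequences outside the set that also end in CCA, spi-miR160a and a spi-miR159 form, were not called and had ratios of 0.40 and 0.43. The grouping by end was made after the values had been seen. The miR8175 family holds 6 sequences of the set, 5 of them lower, and forms of 21 nt that differ by a single base count separately. Family and end go together in this set, so their parts cannot be told apart.

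Both arms of 1 hairpin come from 1 precursor, and the ratio between them does not depend on how the libraries are scaled. For 49 hairpins with exactly 2 listed sequences, each with at least 10 normalized reads in NT or AET, the 2 arms were compared between the libraries by Fisher's exact test on raw reads with Benjamini-Hochberg adjustment over the 49. The arms differed in 15 hairpins (30.6%), in 9 of them with log2 ratios on opposite sides of 0. In 15 of the 49, an arm is listed at more than 1 position, so its reads may come from other hairpins as well.

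The clearest difference was at the miR6027 hairpin on chromosome 10 (plus strand, 62182513 to 62182675). spi-miR6027-5p had 1119 raw reads in NT and 1163 in AET (−0.51), and spi-miR6027-3p had 472 and 887 (0.34), so the 5p arm went from 70.3% to 56.7% of the reads of the hairpin (Fisher's exact test, adjusted p = 1.50e-15). At miR5300 (chromosome 4, plus strand, 423125 to 423389), the guide spi-miR5300 had 868 and 1970 raw reads (0.62) while spi-miR5300-p3 was lower with 64 and 36 (−1.40), an arm difference of −2.01 (adjusted p = 4.40e-10, Fisher's exact test). At miR396 (chromosome 7), the strand opposite to the guide had the higher ratio, by 1.41 (adjusted p = 8.74e-06, Fisher's exact test). At miR9474, both arms were lower but unequally, −1.34 and −3.0 (adjusted p = 0.00075, Fisher's exact test). At miR9479, spi-miR9479-5p had 22 and 49 raw reads while spi-miR9479-3p had 12 and none (adjusted p = 4.62e-05, Fisher's exact test). At miR482e, a difference of 0.39 between arms at 33400 reads of the 3p arm in AET was also past the threshold (adjusted p = 0.038, Fisher's exact test).

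Other large arm differences rested on too few reads. The 3 largest among hairpins with reads of both arms in each library were those of miR9469 (−2.58, adjusted p = 0.20), PC-15 (2.28, adjusted p = 0.17) and the hairpin of spi-miR6300_gma and spi-miR8175_ath on chromosome 3 (−2.12, adjusted p = 0.090), all by Fisher's exact test. The arms of the lower-called miR159 hairpin had nearly equal ratios (−1.91 and −1.78). For miR408b, spi-miR408b-5p_stu had 33 and 27 raw reads (−0.86) beside −1.70 for the 3p arm (adjusted p = 0.086, Fisher's exact test).

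**Figure D3:**
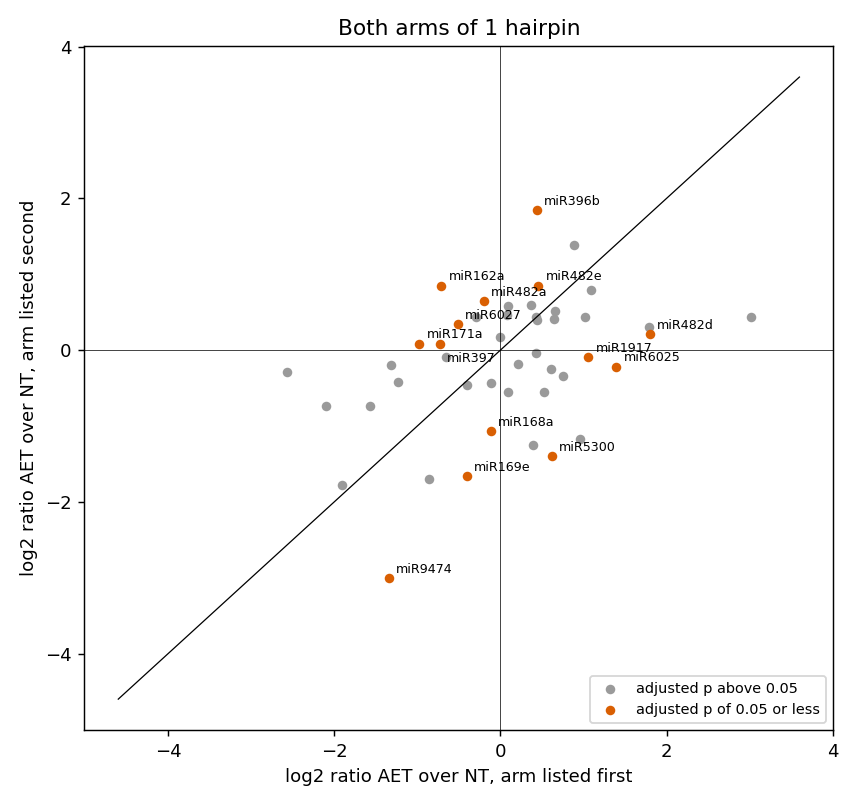
Log2 ratios (AET over NT) of the arm listed first (x axis) and the arm listed second (y axis) for hairpins with 2 well-read arms and reads of both in each library; orange points differ between arms at an adjusted p of 0.05 or less, and the line marks equal ratios. Points far from the line include miR5300 (0.62 and −1.40) and miR396b (0.44 and 1.84).

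Sequences with one seed also parted. Among the 294 sequences, 83 fell into 34 seeds shared by 2 or more, and each was compared with the most-read member of its seed by Fisher's exact test on raw reads, adjusted over the 49 comparisons, a comparison added after the calls had been seen. In 10 of the 49 (20.4%), in 8 seeds, the ratios differed, and in 8 of the 10 the less-read member had the lower ratio. The most-read member was chosen by raw reads of both libraries together, so high AET reads helped to choose it. The 8 of 10 is therefore a description. For example, spi-miR393a_bdi had more raw reads in NT (15) than its leading member spi-miR393-5p_stu (13), but fewer in AET (2 and 17). The counts of comparisons take sequences with equal reads separately: spi-miR171d enters in 2 forms, and the spi-miR319a sequences are compared with each other. For the miR172 seed, spi-miR172d-3p_stu differed from spi-miR172a by −4.83 (adjusted p = 8.32e-08, Fisher's exact test). For the miR166 seed, the second form of spi-miR166a differed from the most abundant one by −0.78 (adjusted p = 3.95e-10, Fisher's exact test), while spi-miR166c-3p, with 23667 and 27891.5 raw reads, differed from it by 0.01 (adjusted p = 0.73, Fisher's exact test). For miR171, spi-miR171d with 36 and 32 raw reads differed from spi-miR171e by −1.77 (adjusted p = 0.000124, Fisher's exact test), in both of its forms, whose reads are equal. For miR393, spi-miR393a_bdi differed from spi-miR393-5p_stu by −3.29 (adjusted p = 0.022, Fisher's exact test).

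Shortened forms parted from their full-length guide at miR159. The 20 nt spi-miR159a-3p_zma (98.2 and 83 raw reads, −0.81) differed from the 21 nt spi-miR159_csi by −1.19 (adjusted p = 9.64e-07, Fisher's exact test), and the 19 nt spi-miR159 (34 and 28 raw reads, −0.85) differed from it by −1.23 (adjusted p = 0.0077, Fisher's exact test). For the miR319 seed, spi-miR319-3p_stu differed from spi-miR319a by −0.98, which was not past the threshold (adjusted p = 0.17, Fisher's exact test).

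**Figure D4:**
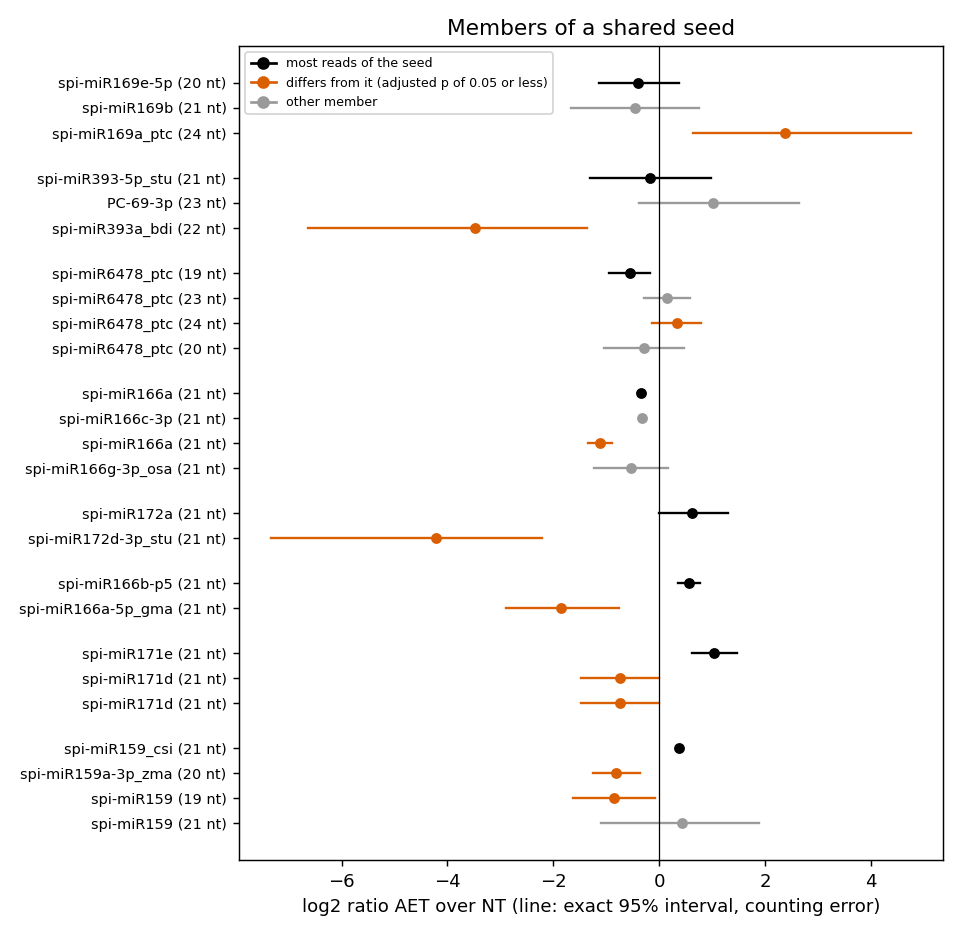
Log2 ratios (AET over NT, x axis) with exact 95% intervals for the members of the 8 seeds in which a member differed from the most-read one; black marks the most-read member, orange a member that differed at an adjusted p of 0.05 or less, and grey the others. spi-miR172d-3p_stu (−4.21) and spi-miR393a_bdi (−3.47) lie farthest below their seed's leading member.

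Degradome libraries, which record the 5′ ends of cleaved transcripts, were made at the same temperatures, and a tag at a predicted site marks a cut there. At the 7 sites listed for 7 sequences called higher, 2 had tags in NT alone, 2 in AET alone and 3 in both, with 9 reads in NT and 8 in AET in all, where 1 read is 84.9 TPB (tags scaled to a common library size) in NT and 92.1 TPB in AET. At the 25 sites listed for 14 sequences called lower, 10 had tags in NT alone, 7 in AET alone and 8 in both. Of these 25, 13 are also listed for a sequence that was not called, with 55 reads in NT and 32 in AET, and the other 12 held 8 reads in NT and 7 in AET, with 3 at most at a site.

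Most of those reads were at transcripts of PHB, an HD-ZIP III factor. The site at position 629 of Solyc02g069830.2.1 had 1868 TPB (22 reads) in NT and 1290 (14 reads) in AET, a log2 ratio of −0.53 with an exact 95% interval of −1.61 to 0.50. The site at position 571 of Solyc11g069470.1.1 had 1189 TPB (14 reads) and 1014 (11 reads), a ratio of −0.23 (−1.51 to 1.02). Both intervals include 0, and both sites are listed for the second form of spi-miR166a, which was lower, and for the most abundant one, which was not called. Every other site of a called sequence had 4 reads or fewer, and a difference in cleavage was not detectable at this depth.

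Among these was AGO2 (ARGONAUTE2, Solyc02g069260.2.1), a site of spi-miR403-3p_ath, with 340 TPB (4 reads) in NT and 0 in AET. MAPR3 (Solyc03g025950.2.1), a site of PC-59-3p, had 0 and 276 TPB. RAP2.7 (an AP2-type factor, Solyc04g049800.2.1), a site of spi-miR172d-3p_stu, had 255 and 184 TPB, and TIR1 (the auxin receptor, Solyc09g074520.2.1), a site of spi-miR393a_bdi, had 255 and 92.1. The AGO2, RAP2.7 and TIR1 sites are also listed for sequences that were not called, so a tag there cannot be given to the called sequence alone. The TCP sites of miR319 had 1 read each, TCP2 in AET alone and TCP4 in NT alone.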

How the data were processed

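The authors removed reads outside 19 to 24 nt and reads matching other RNAs or repeats, matched the rest to miRBase with a mismatch allowed, and deposited for each miRNA its reads in 3 libraries. The raw reads are estimated counts as deposited, since reads were divided among entries (120 and 119 of the 629 values were not whole in NT and AET). The deposited normalized reads, a signal scaled by the authors' modified global normalization, equal raw reads times a factor per library. The deposited degradome values, also a signal, are tags scaled to a common library size (TPB), with a category score from the authors' cleavage caller. Deposited columns of the authors' own comparisons (log2 ratios, p-values and calls) gave no value here, but their calls had been looked at before 1 alternative, on sequences at 0 reads, was added.

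Entries were merged by sequence. A sequence was called where the chi-square test (no continuity correction) and the two-sided Fisher's exact test, on rounded normalized reads against all other listed reads, both gave at most 0.05 and the log2 ratio was 1 or more in size. For 0 reads, a floor of 3 raw reads was used. Intervals at 95% are conditional binomial ones from rounded raw reads and, like the floor, cover counting error only, since PCR copies are not independent molecules. Groups followed lists of families, and sequences were named by size of ratio, number of reads and group; others named were chosen after their values were seen. Members, lists and rules were chosen with earlier results of these data known. Tests ran in Python 3.11.15 with scipy 1.17.1 and were tested on simulated data.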

Additional observations from a re-analysis of the deposited data

How the results depend on the processing

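No paired analysis was possible because each temperature had 1 sRNA library. The counts of 66 higher and 52 lower sequences stayed within 1.5 times under every alternative except that, with no fold threshold, 128 were higher (all 66 among them) and 70 lower. Elsewhere the higher calls ranged from 45 (log2 ratio of at least 1.5) to 81, and the lower ones from 41 to 54. The count of 81 came from calling sequences at 0 reads by their p-values alone, an alternative chosen after seeing the data. It was also chosen after a look at the calls in the deposited comparison. Benjamini-Hochberg adjustment left 53 higher and 46 lower. With each library scaled to its valid reads, every log2 ratio was higher by 0.14 and the calls were 65 and 49, scaling to summed listed reads raised it by 0.18 and gave 79 and 47, and the median of ratios lowered it by 0.04 and gave 61 and 54. Leaving out the sequences ending in CCA, also chosen after seeing the data, gave 66 and 42. With the median of ratios, spi-miR171e (0.99) and PC-51-5p (0.98) were no longer called and spi-miR171a-5p_stu (−1.02) was, and PC-51-5p had 0.95 with 1 added to normalized reads. With valid reads, spi-miR8006-5p_stu (24 nt, 1.13) was called, and the second form of spi-miR166a (−0.98), spi-miR168a-3p (−0.93) and spi-miR398b-3p_stu (−0.86) were not. Of the sequences named, spi-miR171c-p5, spi-miR166a-3p_stu, the 22 nt spi-miR169d-3p_stu, the spi-miR8175_ath of the chromosome 3 hairpin (23.5 and 15.5 raw reads), PC-51-5p and PC-59-3p lost their call after adjustment. Depth limits the rest: at 3 reads the floor is 3.99 normalized reads in NT and 2.69 in AET, and 48 of the 66 higher calls rest on 5 or fewer raw reads in 1 library.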

Other observations

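Some predicted sequences share a stretch of letters, which was noticed after their values had been seen and is given with no test. The stretch CCTTTTCGGC stands in 4 of the 629 sequences (0.636%), all predicted, from hairpins on chromosomes 7, 8 and 10, and all 4 were called higher in AET. Of all 90 predicted sequences, 28 were called higher. PC-10-5p, PC-40-5p and PC-68-5p passed the minimum of reads in AET only, so the count of calls is a description. They are shown with the stretch in capitals.
PC-10-5p: tttctactCCTTTTCGGCctatgt
PC-40-5p: aaataattttttacCCTTTTCGGC
PC-51-5p: tttccatcCCTTTTCGGCcta
PC-68-5p: aataatttcttaccCCTTTTCGGC
PC-10-5p had 1.5 raw reads in NT and 12 in AET, PC-40-5p had 1 and 18, PC-51-5p had 8 and 24 and PC-68-5p had 2 and 14. Each rests on few reads, and only the intervals of PC-40-5p (0.94 to 8.98) and PC-68-5p (0.12 to 5.42) exclude 0.

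A second stretch, AGGTTGATATACGT or its reverse complement, stands in 5 sequences of 24 nt that went different ways.
PC-3-5p: agcattAGGTTGATATACGTcact
PC-31-3p: agtgACGTATATCAACCTaatgcc
PC-12-3p: taACGTATATCAACCTaatgctgt
PC-15-5p: AGGTTGATATACGTtactgtaagt
PC-42-5p: attAGGTTGATATACGTtactgta
PC-3-5p was higher (18 and 92 raw reads, 1.79), PC-31-3p and PC-12-3p were not called (11 and 21 raw reads, 0.37, and 5 and 17, 1.20), and PC-15-5p and PC-42-5p were lower (10 and 2.5, −2.57, and 18 and 5, −2.41). PC-31-3p comes from a hairpin at 34823364 to 34823507 of chromosome 2, which overlaps that of PC-3-5p, and the 2 carry the stretch in opposite orientation.

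Some neighbouring pairs of listed hairpins with calls stand out by position, again chosen after the values had been seen. The miR159 hairpin on chromosome 3, both of whose named strands were lower, lies 8341 bases before that of spi-miR319-3p_stu (61794559 to 61794736), which was also lower. On chromosome 4, the hairpin of spi-miR5300-p3 (lower) and that of spi-miR6025_stu (higher, 10 and 39 raw reads, on the opposite strand at 421926 to 422077) lie 1048 bases apart. The other arm of each was not called: the guide spi-miR5300 had 868 and 1970 raw reads (0.62), and spi-miR6025-p3_stu had 33 and 42 (−0.22). On chromosome 7, 2 hairpins with spi-miR169d-3p_stu sequences (both lower) lie 6258 bases apart.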
